A study of Mus musculus with 20 samples.

Results

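The 10 genes described are Ints1 to Ints10, subunits of the Integrator complex, of 59311 genes in the table of normalized counts. They were picked by their symbol, and the family was chosen by the values of 1 member, Ints5, which had no reads in any Ly6Chi library of the vehicle mice and had reads in all Ly6Chi libraries of the mice given Ac-6-FP. For these 10 genes the Ly6Chi comparison is therefore a description, with intervals and counts but no p, and p-values are given for them only in the Ly6Clo libraries and in the comparison of the subsets.

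Integrator is a nuclear complex that binds RNA polymerase II. It was first known for cutting the 3' ends of the small nuclear RNAs used in splicing, and it also ends transcription of many protein-coding and enhancer RNAs soon after their start by joining an RNA-cutting activity with a phosphatase. Ints1, Ints2 and Ints7 form its backbone, Ints5 and Ints8 its shoulder, Ints4 and Ints9 hold the cutting subunit Ints11, Ints6 takes part in binding the PP2A phosphatase, Ints10 belongs to an arm with Ints13 and Ints14, and Ints3 is also a part of the SOSS complex of DNA repair. Because the subunits work as 1 assembly, the question put to the data was whether the other subunits changed along with Ints5.

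RNA was sequenced from macrophages sorted from the fibrotic livers of 10 male adult C57BL/6 mice (C57BL/6J in the study's methods), all injected with the liver toxin CCl4 over 4 weeks. Mice 16 to 20 were given Ac-6-FP, a ligand of the antigen-presenting molecule MR1 that keeps mucosal-associated invariant T (MAIT) cells from being activated, and mice 11 to 15 its vehicle, around and after the last CCl4 injection. From each mouse, F4/80+ CD11b+ cells free of Ly6G, CD11c and CD3 were split into a Ly6Chi and a Ly6Clo library, which made 4 groups of 5 libraries. The study describes the Ly6Chi cells as the inflammatory macrophages that monocytes give rise to and the Ly6Clo cells as the restorative ones. No library of uninjured liver was part of the comparison.

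Values are normalized counts, which are read counts divided by 1 size factor per library and not by gene length, so that levels are compared between libraries and not between genes. The libraries held between 5693049 and 18682437 reads on genes. The number of genes above 0 lay between 9017 and 14606 in the Ly6Chi vehicle libraries, 11096 and 15587 in the Ly6Chi Ac-6-FP libraries, 5343 and 15723 in the Ly6Clo vehicle libraries and 11156 and 15766 in the Ly6Clo Ac-6-FP libraries. The lowest of all was the Ly6Clo library of vehicle mouse 13, which stood apart with 5343 genes and the lowest read total, and it held no read on any of the 10 subunits. The sort was visible in Ly6c2, the gene of the sorting marker, at 4930.2 to 10011.7 normalized counts over the Ly6Chi libraries and 283.6 to 1013.7 over the Ly6Clo libraries. Macrophage markers were present in all groups (29790.7 to 45096.5 normalized counts in sum over the Ly6Chi libraries). The list for T and NK cells summed to 0 to 457.3 over the Ly6Chi libraries and to 21048.1 to 46235.8 over the Ly6Clo libraries, almost all of it from the NK cell genes Nkg7 (15922.7 to 36198.3) and Klrb1c (3438.0 to 11828.4), while the T cell gene Cd3e stayed at 0 to 11.1, so the Ly6Clo libraries are called by their sort and not as pure macrophages. Over the Ly6Chi and the Ly6Clo libraries in turn, B cell markers summed to 0 to 45.6 and 0 to 445.9, hepatocyte markers to 102.8 to 1200.7 and 1018.4 to 2183.9, neutrophil markers to 3510.3 to 9454.5 and 341.2 to 14753.5, endothelial markers to 31.9 to 330.6 and 0 to 4415.9, stellate cell markers to 0 to 211.9 and 0 to 139.0, Kupffer cell markers to 0 to 246.2 and 0 to 207.3, and dendritic cell markers to 0 to 241.9 and 234.2 to 3496.3. Fewer cells of a type and less RNA per cell cannot be told apart in such libraries.

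Ints5 went from 0 in every Ly6Chi vehicle library to a clear level in every Ly6Chi Ac-6-FP library. Its values in the Ac-6-FP mice 16 to 20 were 99.9, 106.4, 271.9, 101.4 and 183.3 normalized counts, which rest on 118 to 288 reads each. Their mean was 152.59 ± 75.33 (SD, n = 5). By counting error alone, a value of 0 allows up to 3 reads, or 2.65 to 3.21 normalized counts in the 5 vehicle libraries. The mean with Ac-6-FP was 53.1-fold the mean of these limits over the group. Zeros also stood beside high values, as for Ints10, at 0 in Ly6Chi vehicle mouse 15 and at 387.4 to 705.7 in the other Ly6Chi vehicle libraries. The 53.1-fold is therefore no lower bound on the change. On the log2(normalized count + 1) scale the fitted change was 7.14 ± 0.64 (SE), and 5.19 with the vehicle libraries set at their limits.

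Libraries without Ints5 reads held fewer genes in general. Over all 20 libraries, the 8 with Ints5 at 0 had 5343 to 14606 genes above 0 (median 9768.5) and the 12 with reads 10379 to 15766 (median 13637), and within the Ly6Chi libraries the 5 with Ints5 at 0 had a median of 9749 and the 5 with reads 13622. The ranges overlapped, with the highest number among the libraries at 0 in vehicle mouse 11 (14606). The part of detection in the zeros of Ints5 was not tested. Among the 17248 genes tested (group mean of at least 10 in at least 1 group, which all 10 subunits reached), 2929 (17.0%) were at 0 in all 5 Ly6Chi vehicle libraries, and 15 (0.0870%) were at 0 in all 5 of these and above 0 in all 5 Ac-6-FP libraries. These 15 include Ints5, Cenpf and Sgol2a, which act in chromosome segregation, Ccng2, a cyclin, and Tbc1d5, a regulator of endosomal trafficking; the 4 besides Ints5 were picked after their values were seen. The unnamed row that overlaps Ints5, described below, is also among the 15 and is no independent entry. The opposite pattern was found in 1 gene.

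In the Ly6Clo libraries Ints5 was not uniformly silent in vehicle mice. It was at 108.5 and 151.2 normalized counts in mice 11 and 12 and at 0 in mice 13, 14 and 15 (51.93 ± 72.69, SD, n = 5). With Ac-6-FP it was at 266.8, 69.5, 191.3, 70.2 and 133.6 (146.28 ± 84.23, SD, n = 5). All 5 Ac-6-FP libraries held reads, but the groups overlapped. The order of the 4 groups by mean was Ly6Chi vehicle, Ly6Clo vehicle, Ly6Clo Ac-6-FP and Ly6Chi Ac-6-FP, and the last 2 differed by less than the SD of either. Within the mice, mice 11 and 12 carried Ints5 reads in the Ly6Clo library and none in the Ly6Chi library.

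Part of the Ints5 row is also covered by another row. Ints5 (GSMG0019379, chr19:8892987-8897890 in mm10) has 2 exons on the plus strand in GENCODE M21, and exon 2 (chr19:8894759-8897888) holds most of the coding sequence. An unnamed row, GSMG0020071 (chr19:8896648-8897924), overlaps the last 1243 bases of the Ints5 row. The 180 coding bases below, from chr19:8896598-8896777 (plus strand, GRCm38, which is mm10, read from the GENCODE M21 transcript), run over the start of this overlap and are shown because the bases from here to the end of the gene lie in both rows. Capitals mark the 130 bases shared by both rows.
Ints5 exon 2, start of the shared stretch: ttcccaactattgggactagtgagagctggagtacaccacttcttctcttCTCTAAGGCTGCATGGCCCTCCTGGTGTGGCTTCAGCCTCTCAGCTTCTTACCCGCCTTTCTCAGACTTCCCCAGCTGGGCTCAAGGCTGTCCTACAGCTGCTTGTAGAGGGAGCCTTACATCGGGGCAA
The unnamed row was at 0 in the same 8 libraries as Ints5 and above 0 in the same 12. In Ly6Chi Ac-6-FP mice it was at 80.6, 91.7, 129.3, 85.9 and 102.8 normalized counts, and in the 12 libraries its reads came to 39.6% to 101.6% of the Ints5 reads. The library kit does not mark the strand, so reads of the 2 rows cannot be told apart, and the row is no independent measure of Ints5. The next gene downstream, Ganab, does not overlap Ints5 and had reads in all 10 Ly6Chi libraries (357.5 to 1820.5 with vehicle and 690.7 to 2742.9 with Ac-6-FP).

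**Figure D1:**
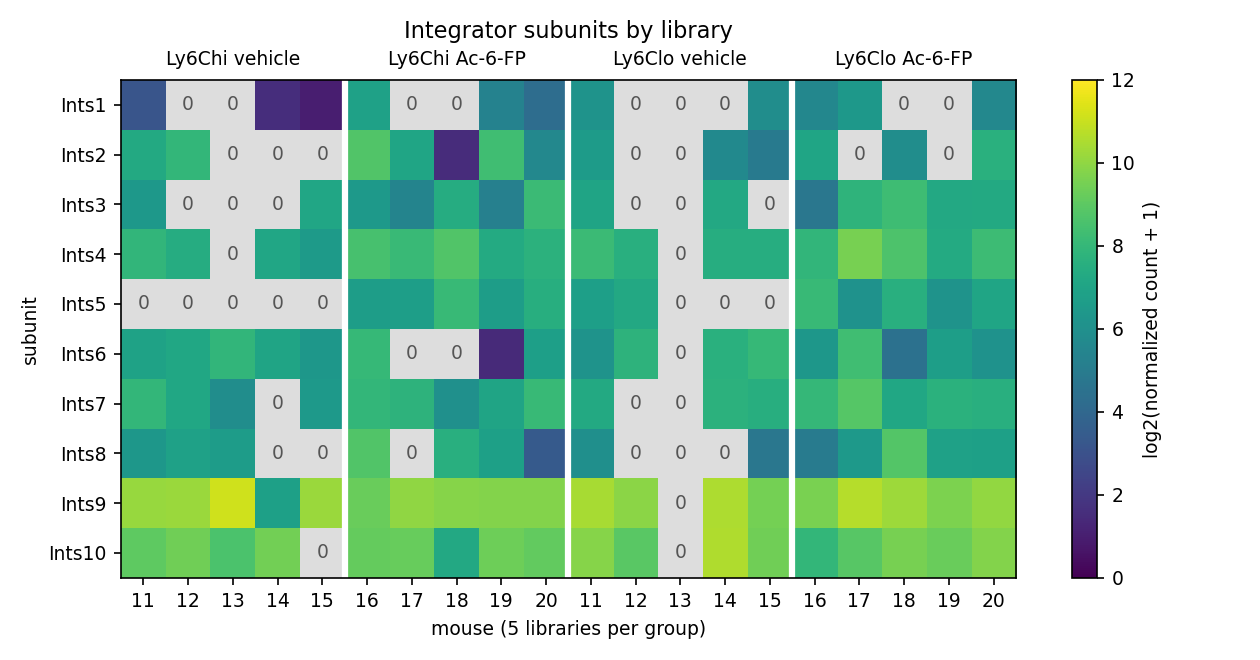
Level of each subunit (rows) in each library (columns, by mouse and group) as log2(normalized count + 1); grey fields with a 0 held no read. Ints5 is at 0 in the 5 Ly6Chi vehicle libraries, and the Ly6Clo vehicle library of mouse 13 is at 0 for all 10 subunits.

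In the vehicle libraries other than the Ly6Clo library of mouse 13, zeros were found in all of Ints1 to Ints10 but Ints6 and Ints9. In Ly6Chi cells, 32 of 50 subunit values were above 0 with vehicle and 45 of 50 with Ac-6-FP. These are 64.0% and 90.0%, beside 57.7% and 70.0% of the values of all genes tested. The values of Ints5 among them are fixed by its choice, and without Ints5 the counts were 32 of 45 (71.1%) and 40 of 45 (88.9%). In Ly6Clo cells, 30 of 50 were above 0 with vehicle (60.0%, all genes 57.8%) and 46 of 50 with Ac-6-FP (92.0%, all genes 72.9%). Without the library of mouse 13, the Ly6Clo vehicle share was 30 of 40 (75.0%, all genes 64.8%). A library held reads on 5 to 9 subunits in the Ly6Chi vehicle group, 7 to 10 in the Ly6Chi Ac-6-FP group, 0 to 10 in the Ly6Clo vehicle group and 8 to 10 in the Ly6Clo Ac-6-FP group. Libraries with fewer genes above 0 tended to hold fewer subunits, and the part of the number of genes detected in these counts was not tested. Most values were either 0 or well covered: of 200, 47 were 0, 4 rested on 1 to 3 reads, 3 on 4 to 20 reads and 146 on more.

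**Figure D2:**
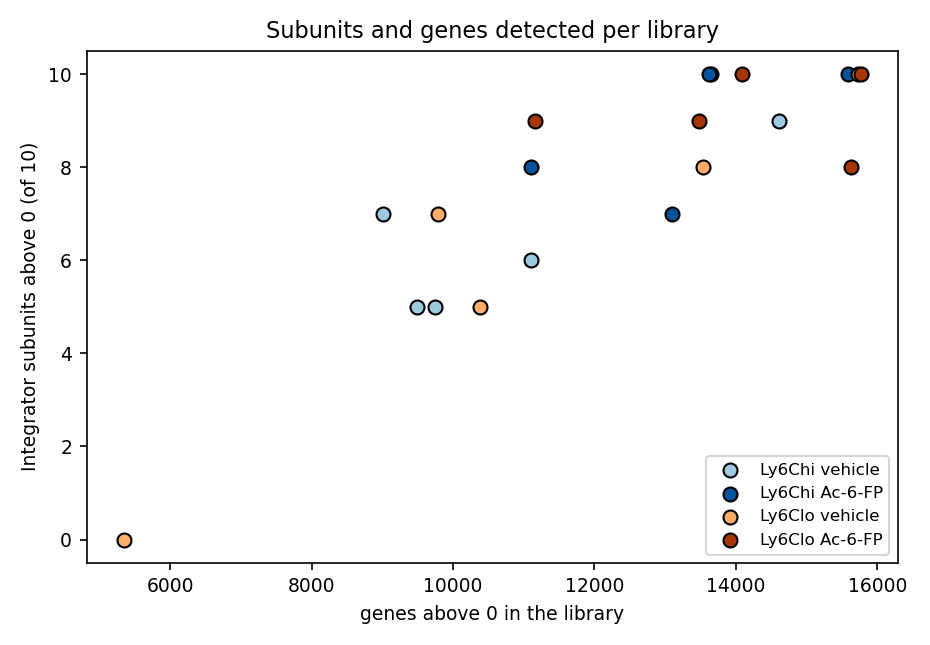
Number of the 10 subunits above 0 against the number of genes above 0, with 1 point per library coloured by group. The Ly6Clo vehicle library of mouse 13 lies at 5343 genes and 0 subunits, and the 10 Ac-6-FP libraries lie at 7 to 10 subunits.

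In the Ly6Chi comparison, 9 of the 10 subunits had a log2 change above 0 with Ac-6-FP, as had 62.9% of all genes tested. Their median change was 2.02 (all genes 0.35), also with Ints5 at its limit, and 1.88 without Ints5. Limma with Benjamini-Hochberg adjustment called 13 genes in all (0.0754%) and 0 of the 9 subunits other than Ints5. The 13 include the unnamed row that overlaps Ints5, whose reads cannot be told apart from those of Ints5. EdgeR, the fit with the number of genes above 0 as a covariate and the fits without mouse 12, 13 or 15 called 0 genes. Of the genes tested 0.968% had all Ac-6-FP libraries above all vehicle libraries. Ints5, chosen on these values, is not counted among the subunits, and since the family was picked on this contrast, nothing is read from these counts. For the other 9 subunits the groups overlapped and the 95% interval of the change held 0. Between the Ly6Chi vehicle and Ac-6-FP libraries, the markers of T and NK cells summed to a median of 26.6 (0 to 457.3) and 185.0 (85.6 to 449.4) normalized counts with Cd3e at 0 in all 10, endothelial markers to 278.3 (34.5 to 330.6) and 93.0 (31.9 to 134.1) with Kdr and Stab2 at 0 in all 10, and Kupffer cell markers to 31.9 (0 to 246.2) and 8.7 (0 to 29.1), while stellate cell markers had a median of 0 in both (highest 211.9 and 0). The part of these differences in the values of the subunits was not tested.

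Of the backbone subunits, Ints1 (chr5:139751282-139775678) had zeros in both Ly6Chi groups. It was at 8.0, 0, 0, 1.9 and 1.0 normalized counts in vehicle mice 11 to 15 and at 114.3, 0, 0, 38.7 and 18.6 in Ac-6-FP mice 16 to 20, a change of 2.15 ± 1.47 (SE) on the log2 scale, and 1.26 without mouse 16, 0.24 with the number of genes above 0 as a covariate and 3.90 by edgeR. Ac-6-FP mice 16, 19 and 20 were above every vehicle mouse, and mice 17 and 18 had no read. Ints2 (chr11:86210683-86257568) was at 153.1, 246.2, 0, 0 and 0 with vehicle and at 427.2, 131.0, 1.9, 320.6 and 47.7 with Ac-6-FP, a change of 3.21 ± 2.20 (SE), and 1.18 with the covariate and 1.24 by edgeR. It had reads in all 5 Ac-6-FP libraries, though only 2 reads in mouse 18, and the groups overlapped. Ints7 (chr1:191575636-191623690) was at 248.7, 139.2, 58.2, 0 and 86.1 with vehicle and at 247.9, 215.3, 63.3, 128.9 and 275.0 with Ac-6-FP, a change of 1.88 ± 1.40 (SE), and 0.51 without mouse 14, 0.34 with the covariate and 0.795 by edgeR. Vehicle mouse 14 was the only Ly6Chi library without Ints7 reads, and the remaining values overlapped between the groups. The Ints2 row lies within the row of a non-coding gene, Brip1os, whose reads cannot be separated from it without strand.

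Ints8 (chr4:11199158-11254259), the shoulder partner of Ints5, did not show the pattern of Ints5 in Ly6Chi cells. Only 0.0870% of the genes tested showed it, so nothing is read from its absence in Ints8. The values of Ints8 are given as a description. Ints8 was at 81.4, 114.5, 98.0, 0 and 0 normalized counts with vehicle and at 429.0, 0, 187.9, 113.4 and 9.7 with Ac-6-FP. The log2 change was 1.34 ± 2.20 (SE), and ran from 0.35 without mouse 14 or 15 to 2.67 without mouse 17. Zeros occurred in both groups. The row shares 5622 bases with that of the cyclin gene Ccne2, which had reads in all 10 Ly6Chi libraries.

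Among the subunits that hold the cutting enzyme, Ints4 (chr7:97480956-97541398) was at 238.1, 169.1, 0, 135.3 and 93.0 normalized counts in Ly6Chi vehicle libraries and at 364.7, 276.7, 425.8, 159.0 and 210.1 with Ac-6-FP. The group means were 127.10 ± 88.70 and 287.25 ± 109.20 (SD, n = 5), with a log2 change of 2.29 ± 1.41 (SE), of which 0.84 remained without vehicle mouse 13 and 1.18 by edgeR. Ac-6-FP mice 16, 17 and 18 lay above every vehicle mouse. Ints9 (chr14:64950044-65039835) was at 1135.5, 1163.6, 2244.9, 113.1 and 1181.9 with vehicle and at 617.6, 1029.7, 903.4, 885.2 and 863.6 with Ac-6-FP. Its log2 change was 0.03 ± 0.71 (SE), the smallest of the 10 and of either sign depending on the fit (−0.69 without mouse 14, −0.45 by edgeR), and all Ac-6-FP values lay inside the range of the vehicle values. Ints9 was also the only one of the 10 subunits above 0 in all libraries but that of mouse 13 in the Ly6Clo vehicle group.

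Ints6 (chr14:62676330-62761140), which takes part in binding the phosphatase, had the only negative change among Ints1 to Ints10 in Ly6Chi cells in the limma fit. It was −3.82 ± 1.69 (SE), and −0.92 by edgeR. Ints6 was at 120.4, 140.2, 240.0, 126.6 and 80.1 normalized counts with vehicle. With Ac-6-FP it was at 257.9, 0, 0, 1.7 and 108.8, so that mice 17 and 18 had no read, mouse 19 had 2 reads, and mouse 16 was above every vehicle mouse. The vehicle libraries held 81 to 272 Ints6 reads each. The row shares 15914 bases with that of Serpine3, whose mean was 1.98 normalized counts with vehicle and 1.42 with Ac-6-FP in Ly6Chi cells, and 35.45 and 4.98 in Ly6Clo cells, and the reads cannot be separated without strand.

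Ints3 (chr3:90391380-90433636), shared with the SOSS complex, changed by 3.86 ± 1.72 (SE) in Ly6Chi cells, and by 1.48 with the number of genes above 0 as a covariate and 1.52 by edgeR. It was at 82.3, 0, 0, 0 and 134.5 normalized counts with vehicle and at 86.8, 41.8, 172.8, 37.0 and 292.1 with Ac-6-FP. All 5 Ac-6-FP libraries had reads and 3 vehicle libraries did not, but the vehicle values of mice 11 and 15 lay within the Ac-6-FP range. Ints10 (chr8:68793928-68829410), of the arm module, was at 513.3, 676.5, 387.4, 705.7 and 0 with vehicle and at 570.2, 597.5, 148.2, 654.0 and 548.4 with Ac-6-FP, a change of 1.52 ± 1.77 (SE). The single 0 of vehicle mouse 15 set its sign: without that mouse the change was −0.31, and by edgeR it was 0.16.

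**Figure D3:**
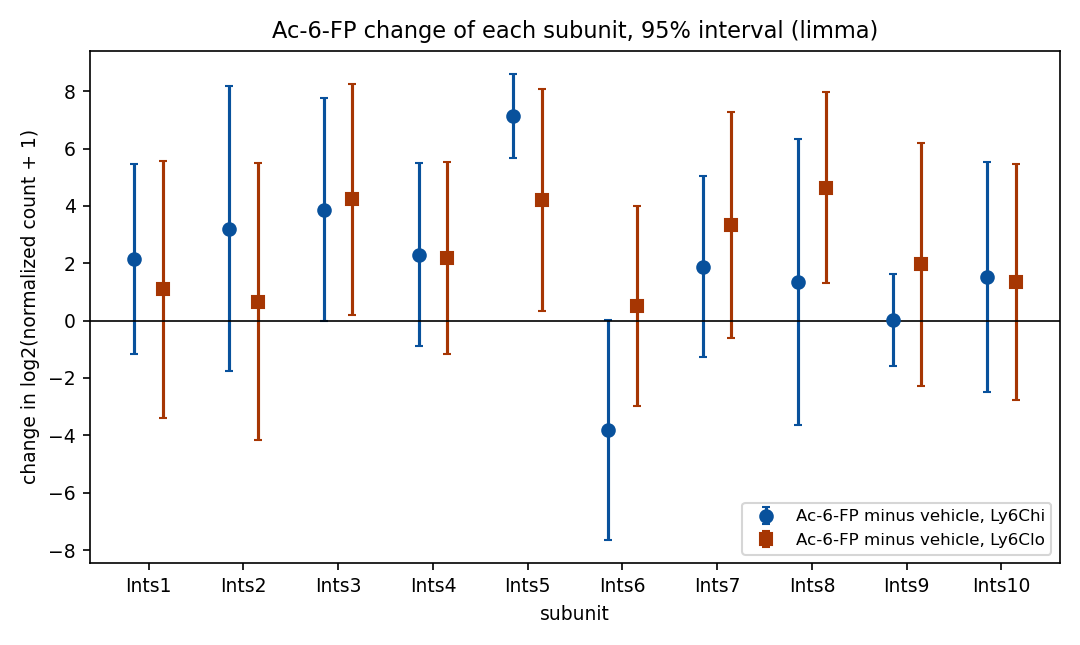
Change with Ac-6-FP in log2(normalized count + 1) for each subunit, with the 95% interval of the limma fit, in Ly6Chi (circles) and Ly6Clo (squares) libraries, 5 against 5 mice each. The Ly6Chi changes lie between −3.82 (Ints6) and 7.14 (Ints5), and the Ly6Chi interval of Ints5 is no test, since the family was chosen on it.

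In the Ly6Clo libraries, which the choice of the family did not use, no subunit passed the test. Limma called 0 of 10 subunits (adjusted p between 0.528 and 0.911) and 9 genes in all (0.0522%). At an unadjusted p under 0.05 limma had 3 subunits, Ints3, Ints5 and Ints8, and 1605 genes, whereas edgeR's quasi-likelihood test on the recovered reads called none and had 0 subunits and 1614 genes at that level. All 10 changes were above 0 in the limma fit, as were 70.5% of all genes tested, but with the number of genes above 0 as a covariate those of Ints1 (−0.96), Ints2 (−0.72), Ints6 (−1.16), Ints9 (−0.24) and Ints10 (−0.82) were below 0, and by edgeR those of Ints6 (−0.37) and Ints10 (−0.35). The median change of the subunits was 2.07 (all genes 0.91), and without the library of mouse 13 it was 0.56 (all genes 0.35), with 6 of 10 above 0 (all genes 61.9%). No subunit had all Ac-6-FP libraries above all vehicle libraries, against 1.29% of genes tested. Macrophage markers summed to a median of 15983.4 normalized counts in the Ly6Clo vehicle libraries (6851.8 to 34159.0) and 37498.6 in the Ac-6-FP libraries (23467.4 to 41806.7), neutrophil markers to 801.5 (341.2 to 10202.0) and 8705.4 (1026.4 to 14753.5), endothelial markers to 684.6 (0 to 2029.4) and 1982.2 (803.3 to 4415.9), B cell markers to 99.1 (0 to 318.5) and 307.5 (252.4 to 445.9), Kupffer cell markers to 3.6 (0 to 205.1) and 112.2 (68.1 to 207.3), stellate cell markers to 1.8 (0 to 139.0) and 76.3 (0 to 93.7), and dendritic cell markers to 1551.4 (234.2 to 2243.1) and 2327.4 (1340.5 to 3496.3), and the part of these differences in the values of the subunits was not tested.

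Ints8 had the smallest unadjusted p of the 10 subunits in Ly6Clo cells (0.0117 by limma), though not the only lowest adjusted p, which Ints5 shared. Ints8 was at 62.5, 0, 0, 0 and 26.5 normalized counts in vehicle mice 11 to 15 and at 31.2, 85.3, 442.3, 115.6 and 111.3 in Ac-6-FP mice 16 to 20. The log2 change was 4.63 ± 1.48 (SE), with an adjusted p of 0.528 by limma. The two-sided exact permutation test over the mice gave p = 0.0159, before any adjustment, where 5 against 5 mice allow a smallest p of 0.00794, and the change was 4.09 without mouse 13 and 3.04 by edgeR. All 5 Ac-6-FP libraries held Ints8 reads and 2 vehicle libraries did, with mouse 11 above Ac-6-FP mouse 16. Ccne2, whose row overlaps that of Ints8, was at 0 in 4 of the 5 Ly6Clo Ac-6-FP libraries.

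Ints5, with the values given above, changed by 4.20 ± 1.72 (SE) on the log2 scale in Ly6Clo cells (adjusted p = 0.528 by limma, exact permutation p = 0.0873). Without mouse 13 the change was 3.50, and by edgeR 1.44. For Ints3 the values were 129.7, 0, 0, 151.1 and 0 normalized counts with vehicle and 26.5, 224.3, 307.2, 149.9 and 157.7 with Ac-6-FP, a change of 4.23 ± 1.79 (SE, adjusted p = 0.530 by limma, exact permutation p = 0.0635), and 1.53 by edgeR. Both genes thus had reads in all 5 Ly6Clo Ac-6-FP libraries and in 2 of the 5 vehicle libraries, and both pairs of groups overlapped.

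Ints7 was at 157.3, 0, 0, 205.4 and 183.4 normalized counts in Ly6Clo vehicle libraries and at 249.8, 458.8, 142.3, 202.2 and 189.2 with Ac-6-FP (change 3.34 ± 1.76 SE, exact permutation p = 0.111, 2.21 without mouse 12 or 13, 1.498 with the covariate and 1.14 by edgeR). For Ints4 the vehicle values were 292.5, 188.3, 0, 179.6 and 179.6, and those with Ac-6-FP were 240.3, 743.7, 399.3, 161.1 and 295.0 (change 2.18 ± 1.49 SE, exact permutation p = 0.0952). Both genes had reads in every Ac-6-FP library, and for Ints4 the change shrank to 0.64 without mouse 13 and 0.50 with the covariate, and was 1.06 by edgeR. The backbone genes Ints1 and Ints2 had zeros in both Ly6Clo groups. Ints1 was at 71.7, 0, 0, 0 and 58.6 with vehicle and at 45.4, 83.0, 0, 0 and 48.2 with Ac-6-FP (change 1.09 ± 2.00 SE, and 0.37 without mouse 17). Ints2 was at 95.7, 0, 0, 51.6 and 29.3 with vehicle and at 131.5, 0, 57.4, 0 and 193.9 with Ac-6-FP (change 0.66 ± 2.15 SE, and −0.20 without mouse 13).

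The direction in Ly6Clo cells rested on mouse 13 for Ints6, Ints9 and Ints10 as well. Ints6 was at 70.8, 213.1, 0, 193.8 and 263.7 normalized counts with vehicle and at 81.4, 315.2, 21.5, 106.2 and 68.6 with Ac-6-FP (change 0.49 ± 1.55 SE, and −0.99 without mouse 13). Ints9 was at 1400.7, 978.8, 0, 1474.1 and 729.7 with vehicle and at 764.4, 1633.2, 1213.3, 800.1 and 1073.2 with Ac-6-FP (change 1.96 ± 1.89 SE, and −0.06 without mouse 13). Ints10 was at 902.2, 494.3, 0, 1499.9 and 664.5 with vehicle and at 247.9, 466.6, 747.1, 601.4 and 867.3 with Ac-6-FP (change 1.33 ± 1.83 SE, and −0.60 without mouse 13). Apart from the library of mouse 13, these 3 genes had reads in every Ly6Clo library and their groups overlapped.

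Between the subsets, compared within the 10 mice with both treatments pooled, no subunit differed past the threshold. Limma called 0 of the 9 subunits tested (adjusted p between 0.661 and 0.956, none at an unadjusted p under 0.05) and 900 genes in all (5.22%), and edgeR called 0 of these 9 and 511 genes in all. The narrowest interval was that of Ints4, whose Ly6Chi minus Ly6Clo difference was −0.30 on the log2 scale (95% interval −1.13 to 0.52), with 7 of 10 mice lower in Ly6Chi cells. The intervals of the other 8 were wider, as for Ints2 (−2.51 to 4.25), so that sizeable differences could have been missed. Ints5 gets no test here, since its zeros in Ly6Chi vehicle cells chose it. For the difference of the Ac-6-FP change between the subsets in the same mice, limma called 0 of all genes tested (0%, with 840 at an unadjusted p under 0.05; edgeR 0, with 313). That contrast holds the Ly6Chi values that chose the family, so nothing is read from it for the subunits.

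The other 6 subunits in the table, Cpsf3l (Ints11, the cutting enzyme), Ints12, Asun (Ints13), Vwa9 (Ints14), E130309D02Rik (Ints15) and Ddx26b (Ints6l), were not part of the selection. Limma and edgeR called 0 of the 6 in either comparison with vehicle, with 0 at an unadjusted p under 0.05. Between the subsets limma and edgeR also called 0 of the 6. Limma had 1 at an unadjusted p under 0.05, beside 17.2% of all genes tested. It was Vwa9, at a Ly6Chi minus Ly6Clo difference of 1.55 ± 0.69 (SE, adjusted p = 0.278), higher in Ly6Chi cells in 9 of 10 mice. The median difference of the 6 was 1.46 (all genes −0.03). The Ly6Clo library of mouse 13, which held no read on 5 of the 6, is part of both values. In that mouse Vwa9 was at 405.9 normalized counts in the Ly6Chi and 0 in the Ly6Clo library, and no difference without it is given here. The median change of the 6 with Ac-6-FP was 0.40 in Ly6Chi and 1.33 in Ly6Clo cells, and 0.06 in Ly6Clo cells without mouse 13. Ints11, Ints12 and Ints14 had reads in all 10 Ly6Chi libraries: Ints11 was at 417.28 ± 319.96 with vehicle and 452.28 ± 185.58 with Ac-6-FP, and Ints12 at 660.11 ± 118.88 and 655.43 ± 213.55 normalized counts (SD, n = 5). The 95% interval of the Ints12 change, −0.54 to 0.45 in Ly6Chi cells, was the narrowest of all subunits in that comparison. Zeros in Ly6Chi cells occurred in 5 of 30 values with vehicle and 2 of 30 with Ac-6-FP, whereas 42.3% and 30.0% of the values of all genes tested were 0.

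Of the partners of Integrator, Brat1 changed in Ly6Chi cells. Brat1 is a protein that binds the Ints9 and Ints11 pair and is known from a severe epilepsy of newborns when mutated. In Ly6Chi vehicle libraries it was at 1.8 normalized counts in mouse 11, from 2 reads, and at 0 in mice 12 to 15, and with Ac-6-FP it was at 90.6, 49.1, 99.1, 27.5 and 80.5 (69.35 ± 30.09, SD, n = 5). The groups did not overlap. The change was 5.70 ± 0.69 (SE) on the log2 scale, with an adjusted p of 0.0290 over all genes tested by limma. This p comes from the contrast that chose the family and is no independent support for the change of Ints5. The call rests on the test, as edgeR gave an adjusted p of 0.487 (change 7.17) and the fit with the number of genes above 0 as a covariate 0.370 (change 5.29), and on single mice, as it was 0.168, 0.193, 0.162, 0.113, 0.0558 and 0.0846 without mouse 12, 13, 14, 15, 17 and 20, while the change stayed between 5.54 and 6.00 with 1 mouse left out. Over all alternatives it ran from 0.0154 to 0.550. In Ly6Clo cells the values were 37.7, 0, 0, 0 and 34.97 with vehicle and 130.6, 0, 0, 57.4 and 0 with Ac-6-FP, a change of 0.49 ± 1.94 (SE), which was not past the threshold.

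**Figure D4:**
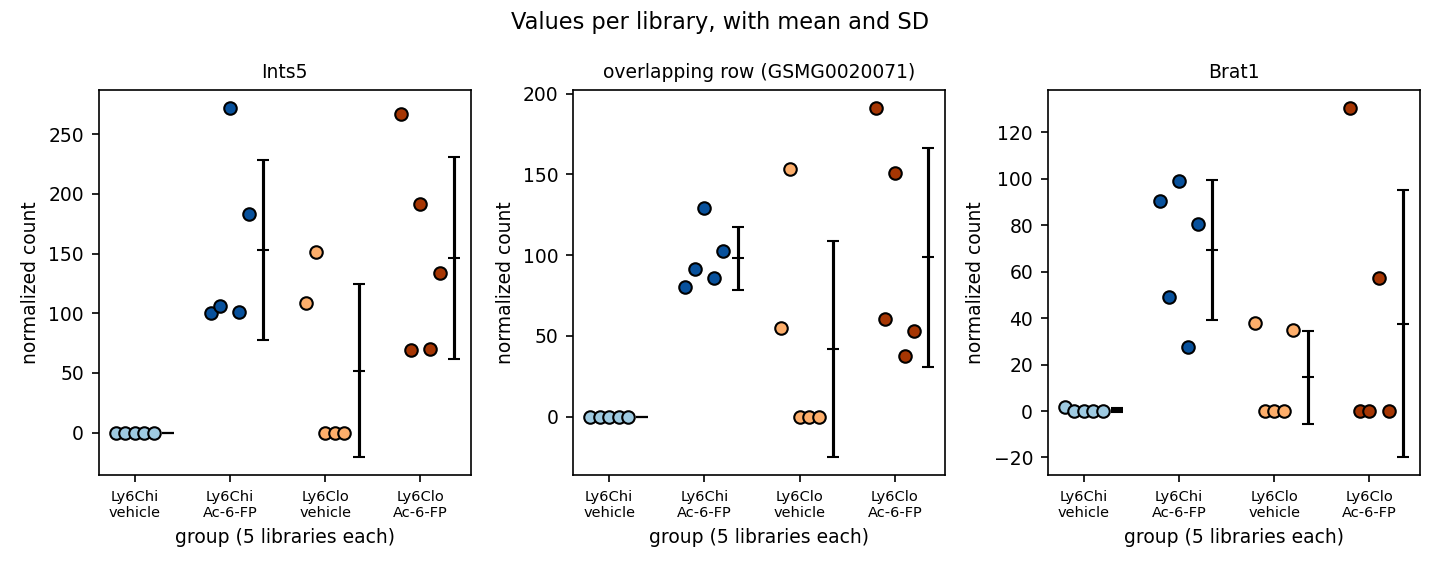
Normalized counts per library of Ints5, of the unnamed row that overlaps it and of Brat1 in the 4 groups, with the mean and SD of 5 libraries beside the points. In Ly6Chi cells all vehicle points lie at or next to 0, and those with Ac-6-FP between 99.9 and 271.9 for Ints5 and between 27.5 and 99.1 for Brat1.

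Of the 49 partner genes tested besides Brat1, limma and edgeR called 0 in each of the 3 comparisons. At an unadjusted p under 0.05 limma had 5 in each, and edgeR had 1 in Ly6Chi, 3 in Ly6Clo and 3 between the subsets. The 5 are 10.2%, beside 8.7%, 9.3% and 17.2% of all genes tested by limma in the 3 comparisons. The SOSS genes with Brat1 had a median change of 0.23 in Ly6Chi and 1.36 in Ly6Clo cells (0.35 without mouse 13), over 4 genes. PP2A, the phosphatase that joins Integrator, had 0.50 and −0.11 over 4 genes (−0.45 in Ly6Clo cells without mouse 13). The pausing factors NELF and DSIF, which hold RNA polymerase II near the start of genes, had 0.45 and 3.57 over 6 genes (2.38 without mouse 13), with 7 of 30 Ly6Clo vehicle values at 0, of which 4 in the library of mouse 13, and none with Ac-6-FP (all genes 42.2% and 27.1%). P-TEFb, the kinase that releases paused polymerase, and its regulators had −0.53 and 1.42 over 5 genes (0.22 without mouse 13). The factors of small nuclear RNA genes had 20 of 40 Ly6Chi values at 0 with vehicle and 7 with Ac-6-FP over 8 genes tested (all genes 42.3% and 30.0%), and their median changes were 1.93 and 1.85 (0.96 without mouse 13). The machinery that cuts and polyadenylates messenger RNA had 0.74 and 0.82 over 11 genes (−0.43 without mouse 13), and RNA polymerase II itself 0.02 and 1.25 over 12 genes (−0.20 without mouse 13).

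By the correlation of log2 values over the 20 libraries, the genes with a symbol most like Ints5 were listed. The unnamed row that overlaps Ints5 (r = 0.995) was left aside. The genes were Mfsd3 (r = 0.94), Spns1 (0.88), Gm14023 (0.83), Ubxn2a (0.80) and Tbc1d5 (0.79), of which Mfsd3 and Spns1 code for membrane transporters. Integrator subunits are few among all genes, so nothing is read from their absence from this short list. Among Ints1 to Ints10, r with Ints5 was highest for Ints3 (0.54) and Ints4 (0.53) and lowest for Ints6 (−0.24), while Ints8 reached 0.37. How these values rank among those of all genes was not determined. These coefficients include the Ly6Chi values that chose Ints5 and describe 20 libraries that share mice, treatments and depth, and many of the points are pairs of zeros.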

How the data were processed

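The deposited table holds signal values, which the authors made by counting reads of 75 bases, aligned with STAR 2.4.0 to mm10, on constitutive regions of FAST DB genes and dividing by DESeq2 size factors. Libraries came from a low-input kit that does not mark strand. All values above 0 were whole multiples of 1 step per library (100.0%, tolerance 0.006), which gave back the reads. For the Ly6Chi library of mouse 15 the step was near 1, so edgeR was also run without that mouse.

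The members, gene lists and tests were chosen with earlier results of these data known. The scale was log2(normalized count + 1), over 17248 genes with a mean of at least 10 in at least 1 group, by limma 3.58.1 in R 4.3.3 with Benjamini-Hochberg adjustment (threshold 0.05). Subsets were compared by within-mouse differences, since both libraries of a number came from 1 animal by titles and methods. The correlation of residuals within mice had a median of 0.0338. Exact permutation tests were two-sided. Alternatives were other pseudocounts, filters, scaling and covariates, edgeR 4.0.16, no pairing and leaving out each mouse. Python 3.11.15 was used. Genes were named by rule: the 10 members, the other subunits, up to 3 called genes of each partner list, and the 5 genes most like Ints5. Genes outside this rule were picked with their values known. Marker lists covered macrophages, hepatocytes, stellate, endothelial, Kupffer, dendritic, B, T and NK cells, and neutrophils.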

Additional observations from a re-analysis of the deposited data

Results flagged for a closer look

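Looked at were 48 groups of 5 libraries (each subunit, the number of subunits and the number of genes above 0). In 4 of them the gap of 1 library to the nearest value was a larger part of the range than Dixon's 95% critical value. Chance gives this in about 1 of 20 groups of normally distributed values. Most of these groups are untransformed counts with many zeros, for which that rate is not known. The 4 libraries were Ints1 in Ly6Chi vehicle mouse 11 (7.97 normalized counts), Ints6 in Ly6Clo Ac-6-FP mouse 17 (315.20), Ints8 in Ly6Clo Ac-6-FP mouse 18 (442.30) and, as a low value, Ints10 in Ly6Chi Ac-6-FP mouse 18 (148.21).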

How the results depend on the processing

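The number of genes called in Ly6Chi cells (13) was 5 without a filter, 4 when group means had to reach 100, and 0 with the number of genes above 0 as a covariate, by edgeR, and by edgeR without mouse 15. In Ly6Clo cells 9 genes became 2 with a pseudocount of 10, no filter, the filter at 100 or the covariate, and 0 by edgeR. Between the subsets 900 became 1848 with the covariate, 511 by edgeR and 402 by edgeR without mouse 15. For the difference of the changes, 0 became 2 with the filter at 100 and 3 without the replicate block, and without that pairing no subunit was called in either comparison of the subsets. Leaving out 1 mouse gave 0 (mice 12, 13 and 15) to 133 (mouse 11) genes in Ly6Chi, 0 (mice 12, 14, 19 and 20) to 103 (mouse 11) in Ly6Clo, 639 to 1141 between subsets and 0 to 4 for the difference, with 0 to 1 subunits in Ly6Chi, from which nothing is read since Ints5 was chosen there, and 0 elsewhere.

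The Ly6Chi change of Ints5 was 10.45 with a pseudocount of 0.1, 3.91 with 10, 10.46 by edgeR and 7.26 with the covariate, and 6.90 to 7.26 with 1 mouse left out. With the covariate the Ly6Chi changes of Ints1, Ints2, Ints3 and Ints7 shrank to 0.24, 1.18, 1.48 and 0.34, and that of Ints9 turned to −0.22. By edgeR that of Ints6 was −0.92 and that of Ints9 −0.45, and without mouse 15 that of Ints10 was −0.17. Brat1 lost its call with a pseudocount of 0.1 (adjusted p = 0.109), without a filter (0.110), with the covariate and by edgeR.

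With the covariate, Ly6Clo changes turned negative for Ints1 (−0.96), Ints2 (−0.72), Ints6 (−1.16), Ints9 (−0.24) and Ints10 (−0.82), with a pseudocount of 10 for Ints6 (−0.047), and by edgeR for Ints6 (−0.37) and Ints10 (−0.35). With 1 mouse left out they ran from −0.22 to 1.68 for Ints2, −0.99 to 1.03 for Ints6, −0.064 to 2.57 for Ints9 and −0.60 to 2.04 for Ints10. Between the subsets Ints7 turned to −0.036 with a pseudocount of 10, Ints9 to −0.034 by edgeR without mouse 15, and Ints10 to 0.39 with the covariate and 0.18 by edgeR without mouse 15. There the ranges with 1 mouse left out were −1.17 to 0.42 for Ints3, −0.51 to 1.14 for Ints7, −0.57 to 0.91 for Ints8, −0.51 to 1.13 for Ints9 and −1.35 to 0.65 for Ints10. Counting only values above 3 reads left 30, 43, 30 and 46 subunit values in place of 32, 45, 30 and 46. The cause of these shifts was not tested.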
